A study of Mus musculus with 8 samples.

Results

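The genes described here are *Trp53*, which encodes p53, and 9 classical p53 target genes: *Cdkn1a*, *Mdm2*, *Gadd45a*, *Btg2*, *Plk2*, *Ccng1*, *Trp53inp1*, *Phlda3* and *Zmat3*. They are taken by name, with earlier results of these data known, and all 10 were found among the 23356 genes of the deposited table. p53 is a transcription factor that is held low by the ubiquitin ligase Mdm2 and is stabilized when DNA is damaged, when nucleotides run short or when mitosis is delayed. It is regulated mainly at the level of the protein, so its own mRNA can stay level while its targets respond. Its targets halt the cell cycle, repair DNA, trigger apoptosis and, through Mdm2, feed back on p53 itself. Several of them are also immediate stress genes that other transcription factors can switch on.

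The cells were bone marrow-derived DCs (BMDCs), dendritic cells grown from mouse marrow with GM-CSF and IL-4, from mice that were WT or lacked GEF-H1 (GEF-H1-/-), on a background given as C57BL/6 in the labels and as C57BL/6N in the study's methods. GEF-H1, encoded by *Arhgef2*, is an exchange factor for RhoA that is bound to microtubules and released when they are taken apart. Cells of each genotype were left untreated (control) or were incubated with 100 nM ansamitocin-P3, a maytansine derivative that destabilizes microtubules, for 5 h. There were 8 libraries, 2 for each of the 4 groups, and nothing in the labels says whether duplicates came from separate cultures or animals.

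For each gene the table holds a single FPKM value per group (fragments scaled by transcript length and library size), with the bounds of a 95% interval, since Cuffdiff merged the duplicates. No difference could therefore be tested against the spread between duplicates, and no value has an SD, an n or a p-value. The Cuffdiff interval is the error given here. It covers the error that Cuffdiff models for a group value, and it is not a measured spread. A change is the log2 ratio of FPKM + 1 between 2 groups, with an interval derived from the widths of the Cuffdiff intervals. A gene was counted as past the limit when this ratio was over 1 or under -1, and intervals were called apart when the Cuffdiff intervals of both groups did not overlap. All 10 genes were among the 11397 that reached 1 FPKM in any group and had a valid Cuffdiff status. Their intervals spanned 36.1% to 57.8% of the FPKM.

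In WT DCs *Arhgef2* was at 42.3 FPKM without and 45.9 FPKM with the drug (intervals 34.5 to 49.98 and 36.9 to 54.9), and at 4.59 (3.54 to 5.63) and 4.16 (3.22 to 5.11) in the GEF-H1-/- groups. The level was thus low in both columns labelled for the knockout, and a remainder of its transcript was still counted there. The table does not name the genotype of the WT columns, which were assigned by elimination. All 6 dendritic cell markers (*Itgax*, *H2-Ab1*, *H2-Aa*, *Cd74*, *Zbtb46* and *Flt3*) were above 1 FPKM in every group. The 6 neutrophil markers in the table summed to 32023 FPKM in control WT and 21687 in control GEF-H1-/- DCs and include *S100a8* and *S100a9*, which monocytes also express. *S100a8* was the largest part of both sums, at 19401 and 10856 FPKM, and its value lay above its own Cuffdiff interval in every group, so these sums are uncertain. In bulk RNA, fewer cells of a type and less RNA per cell cannot be told apart.

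p53 acts on DNA through a paired half-site, and the promoters shown are those of the 3 members that rose past 2-fold in WT DCs and of *Cdkn1a*, the member next to that limit. The RefSeq table of promoters (GRCm38.p6, 250 bases before to 50 after the start of transcription) held 9 windows for 8 of the 10 genes. *Trp53inp1* and *Zmat3* had no entry. The 250 bases before the start are printed below 5′ to 3′ on the strand of the gene, for *Gadd45a* (chr6:67037408-67037657, minus strand), *Btg2* (chr1:134079156-134079405, minus strand), *Plk2* (chr13:110394794-110395043, plus strand) and *Cdkn1a* (chr17:29090729-29090978, plus strand). Capitals mark the p53 half-site consensus in *Gadd45a* and *Cdkn1a* and the cAMP response element TGACGTCA, the site of CREB and ATF factors, in *Btg2* and *Plk2*.
Gadd45a: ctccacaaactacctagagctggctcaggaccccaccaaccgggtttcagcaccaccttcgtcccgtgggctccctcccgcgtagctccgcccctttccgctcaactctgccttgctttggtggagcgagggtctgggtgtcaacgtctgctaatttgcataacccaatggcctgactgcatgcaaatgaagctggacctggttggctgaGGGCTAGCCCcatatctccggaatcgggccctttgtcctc
Btg2: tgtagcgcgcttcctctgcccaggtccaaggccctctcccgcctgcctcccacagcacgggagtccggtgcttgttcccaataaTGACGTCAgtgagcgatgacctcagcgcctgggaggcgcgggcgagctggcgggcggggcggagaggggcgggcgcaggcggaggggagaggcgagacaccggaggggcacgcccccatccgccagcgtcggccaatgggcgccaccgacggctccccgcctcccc
Plk2: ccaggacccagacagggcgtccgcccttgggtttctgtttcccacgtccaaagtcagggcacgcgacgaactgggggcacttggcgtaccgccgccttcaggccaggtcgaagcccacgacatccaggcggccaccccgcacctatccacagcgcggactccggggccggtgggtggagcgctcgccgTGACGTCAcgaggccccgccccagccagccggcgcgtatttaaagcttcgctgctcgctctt
Cdkn1a: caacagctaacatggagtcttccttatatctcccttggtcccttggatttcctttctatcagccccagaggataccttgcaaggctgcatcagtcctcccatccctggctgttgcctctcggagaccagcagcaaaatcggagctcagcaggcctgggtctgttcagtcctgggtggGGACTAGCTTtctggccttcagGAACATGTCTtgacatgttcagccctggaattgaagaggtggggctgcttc
Both strands of each window were searched. The p53 half-site was found in 5 of the 8 genes, and 9.55% of the 27025 genes in the RefSeq table hold it in a window (8.36% of 32851 windows). It began 40 bases before the start in *Gadd45a*, 73 and 51 bases before it in the printed window of *Cdkn1a*, 186 in *Mdm2*, 75 in *Trp53* and 185 in *Ccng1*. *Cdkn1a* has a second window at another start (chr17:29093519-29093818), not printed, which held no half-site. The 2 matches of *Cdkn1a* were the only pair of exact matches in 1 promoter of these genes, with 12 bases between them. The bases that directly follow GAACATGTCT there, tgacatgttc, depart from the consensus at 1 base and were not counted. Only exact matches were searched for, so paired half-sites with a mismatch are missed, and the pair counted need not be the one that p53 uses. Sites further upstream or deeper in the gene lie outside these windows and were not searched, so a window without a match does not show that a gene lacks a p53 site. *Btg2* and *Plk2* held no exact half-site in their windows. Each of them held 1 full cAMP response element, 166 and 62 bases before the start, which 2.03% of all genes (1.79% of all windows) hold and no other searched member did. The AP-1 motif TGANTCA was in none of the 9 windows and in 7.81% of all windows (8.97% of all genes). No searched promoter of a member held both kinds of match, and the searches for the cAMP response element and the AP-1 motif were added after the values were seen. A match of letters is a description and not a measured binding site.

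In control WT DCs the members spanned a wide range. *Cdkn1a* was the highest at 307 FPKM, above 97.8% of the genes that passed the filter, followed by *Ccng1* at 115, *Trp53* at 67.0 and *Mdm2* at 42.3, each apart from the next by its interval. *Mdm2*, *Plk2* (32.1), *Btg2* (30.4), *Phlda3* (25.2) and *Trp53inp1* (19.3) followed, and each overlapped its neighbour in this order. *Gadd45a* (10.3) was apart from *Trp53inp1* and overlapped *Zmat3* (7.71), the lowest. The median of all genes that passed was 12.3 FPKM. These cells thus carried abundant *Cdkn1a* transcript before any drug was given.

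**Figure D1:**
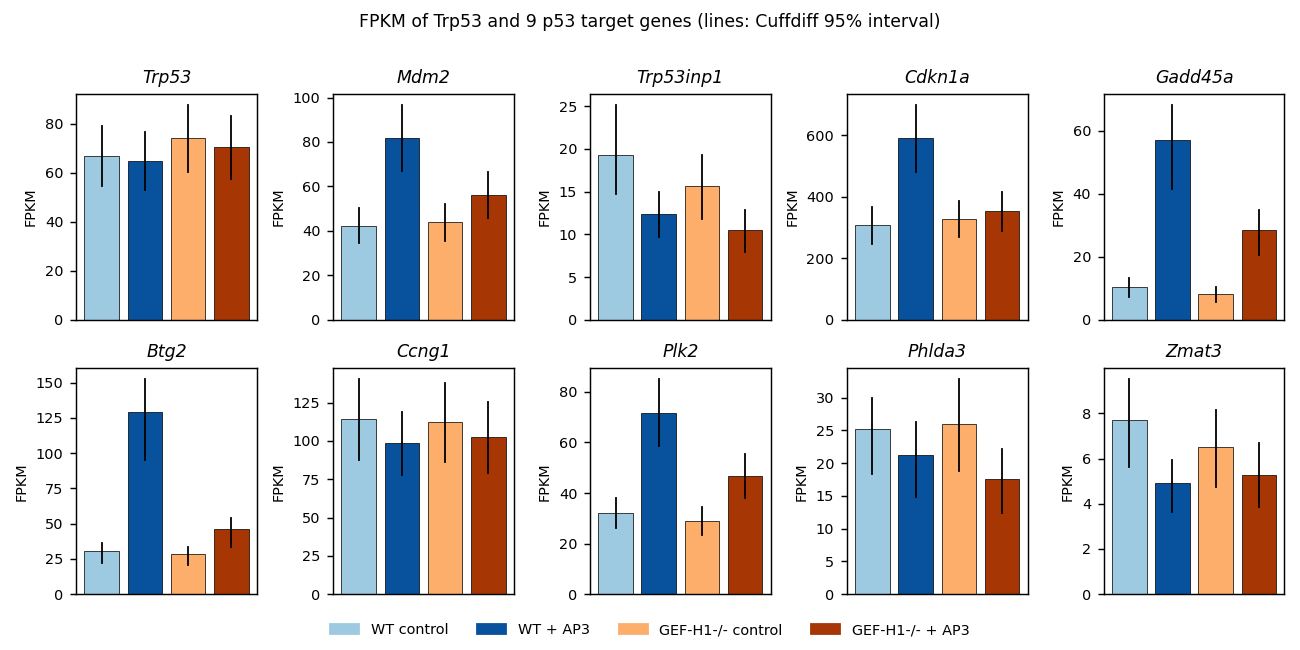
FPKM of the 10 genes in the 4 groups, 1 panel per gene with its own axis from 0; bars are the deposited group values and vertical lines the Cuffdiff 95% intervals. *Cdkn1a*, *Mdm2*, *Gadd45a*, *Btg2* and *Plk2* are highest in treated WT DCs, with a lower bar in treated GEF-H1-/- DCs, while *Trp53* and *Ccng1* are nearly level.

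The first question was whether microtubule destabilization changed p53 and its targets in WT DCs. After 5 h of ansamitocin-P3, 5 of the 10 genes were higher with intervals apart (*Gadd45a*, *Btg2*, *Plk2*, *Cdkn1a* and *Mdm2*), and the other 5 had overlapping intervals. Among all genes, 9.19% were higher with intervals apart and 7.58% lower. Past the 2-fold limit were 3 of the 10, all higher, against 3.66% of all genes higher and 1.28% lower. The median change of the 10 genes was 0.44, and that of all genes 0.00. Not all members moved together, since *Trp53inp1*, *Zmat3*, *Phlda3*, *Ccng1* and *Trp53* each had a log2 ratio below 0. The groups do not share a total of FPKM, and rescaling them to an equal total shifted the median of all genes by -0.24 in WT DCs. All genes past 2-fold then split into 259 higher and 406 lower, in place of 417 and 146, and the median of the 10 genes was 0.17.

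p53 and the genes that act on it are given first. *Trp53* (chromosome 11, 69580359 to 69591873, GRCm38 as in the table for this and all other loci) was at 67.0 FPKM (54.7 to 79.3) in control WT, 64.7 (53.01 to 76.4) in treated WT, 74.1 (60.5 to 87.7) in control GEF-H1-/- and 70.4 (57.5 to 83.2) in treated GEF-H1-/- DCs. The intervals of all 4 groups overlapped. Its log2 change with the drug was -0.05 (-0.41 to 0.32) in WT DCs and -0.07 (-0.44 to 0.29) in the absence of GEF-H1, so no change of the p53 transcript was detectable at this precision.

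*Mdm2* (chromosome 10, 117688905 to 117710716), the ubiquitin ligase that p53 induces and that marks p53 for degradation, went from 42.3 FPKM (34.4 to 50.2) to 81.9 (67.0 to 96.7) in WT DCs. In GEF-H1-/- DCs it was at 43.8 (35.6 to 52.0) and 56.3 (46.0 to 66.7). The treated WT value stood above the other 3 groups by its interval, and the control values of both genotypes overlapped. Its WT change of 0.94 (0.57 to 1.31) lay just under the 2-fold limit, and the GEF-H1-/- change was 0.35 (-0.02 to 0.73).

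*Trp53inp1* (chromosome 4, 11156441 to 11174377), a stress-induced protein that promotes phosphorylation of p53 and autophagy, was at 19.3 FPKM (14.7 to 25.2) and 12.3 (9.69 to 14.9) in control and treated WT DCs, and at 15.6 (11.8 to 19.3) and 10.5 (7.93 to 12.8) in the GEF-H1-/- groups. It was lower after the drug in both genotypes, with overlapping intervals in each. The log2 ratios were -0.60 (-1.07 to -0.14) and -0.54 (-0.99 to -0.09), whose derived intervals both lay below 0. Its change thus had the opposite sign to that of *Mdm2*.

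Genes with known roles in the cell cycle and growth arrest follow. *Cdkn1a* (chromosome 17, 29090986 to 29100722) encodes p21, the inhibitor of cyclin-dependent kinases through which p53 stops the cell cycle. It was at 307 FPKM (248 to 367) in WT DCs left untreated and 589 (480 to 699) with the drug, against 328 (268 to 387) and 352 (288 to 415) in GEF-H1-/- DCs. Treated WT DCs stood apart from the other 3 groups, which overlapped one another. The change was 0.94 (0.55 to 1.32) in WT DCs and 0.10 (-0.26 to 0.47) in the absence of GEF-H1.

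*Gadd45a* (chromosome 6, 67035096 to 67080652), a stress sensor that binds PCNA and activates p38 signaling, was at 10.3 FPKM (7.27 to 13.2) in WT DCs left untreated and 57.1 (41.4 to 68.2) with the drug. Without GEF-H1 it was at 8.23 (5.75 to 10.4) and 28.3 (20.6 to 34.7). Both treated groups stood above both control groups, and the treated groups were also apart from each other. The change of 2.37 (1.86 to 2.87) in WT was a 5.56-fold ratio of FPKM and ranked 50th among all genes. The gene moved from above 44.9% to above 85.2% of the genes that passed. In GEF-H1-/- DCs its change of 1.67 (1.17 to 2.17) ranked 39th, a 3.44-fold ratio of FPKM. The deposited locus of *Gadd45a* runs over the overlapping long noncoding RNA gene E230016M11Rik (67036599 to 67080652), which had its own row at 1.22, 4.27, 1.16 and 2.46 FPKM in control WT, treated WT, control GEF-H1-/- and treated GEF-H1-/- DCs. Whether the counting behind this table used strand is not given in the sources used here, so reads of both genes may not be fully separated.

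*Btg2* (chromosome 1, 134074865 to 134079155), an antiproliferative adaptor of the CCR4-NOT deadenylase, was at 30.4 FPKM (22.4 to 36.0) in WT DCs left untreated and 129 (95.1 to 152) with the drug. It was at 28.4 (20.7 to 33.5) without and 46.2 (33.7 to 54.2) with the drug in GEF-H1-/- DCs. Treated WT DCs were far above every other group, and in GEF-H1-/- DCs the control and treated intervals came close without touching. The change was 2.05 (1.61 to 2.50) in WT, a 4.26-fold ratio that ranked 77th, and 0.69 (0.24 to 1.13) in GEF-H1-/- DCs.

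*Plk2* (chromosome 13, 110395044 to 110400843), a polo-like kinase that acts in centriole duplication, was at 32.1 FPKM (26.2 to 38.1) and 71.7 (58.4 to 85.1) in control and treated WT DCs. Without GEF-H1 it was at 28.9 (23.5 to 34.3) and 46.7 (38.0 to 55.4). The treated groups were apart from the controls of their genotype and from each other. The WT change of 1.13 (0.76 to 1.5) lay just past the limit, and the GEF-H1-/- change was 0.67 (0.30 to 1.04). When the groups were rescaled to an equal total of FPKM, the WT change of *Plk2* was 0.86, no longer past the limit, while those of *Gadd45a* and *Btg2* were 2.09 and 1.78.

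*Ccng1* (chromosome 11, 40748552 to 40755286), which encodes cyclin G1, a partner of protein phosphatase 2A in the control of Mdm2, was at 115 FPKM (87.5 to 140) and 98.4 (77.8 to 119) in WT DCs and at 113 (86.1 to 138) and 102 (78.8 to 126) in the absence of GEF-H1. All 4 intervals overlapped, and the changes were -0.22 (-0.66 to 0.23) and -0.14 (-0.60 to 0.33). A rise above 0.33 on the log2 scale lay outside both intervals.

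The remaining targets act on survival signals and on mRNA. *Phlda3* (chromosome 1, 135766085 to 135769134), which competes with Akt for membrane lipids, was at 25.2 FPKM (18.4 to 30.0) and 21.2 (14.9 to 26.2) in control and treated WT DCs, and at 25.9 (18.8 to 32.8) and 17.5 (12.4 to 22.2) in GEF-H1-/- DCs. Its 4 intervals overlapped. The log2 ratio was -0.24 (-0.73 to 0.25) in WT DCs and -0.54 (-1.08 to -0.01) in the absence of GEF-H1.

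*Zmat3* (chromosome 3, 32334794 to 32367438), a zinc finger protein that binds RNA, was at 7.71 FPKM (5.63 to 9.52) and 4.91 (3.64 to 5.92) in WT DCs and at 6.52 (4.76 to 8.14) and 5.28 (3.86 to 6.71) in the absence of GEF-H1. The intervals overlapped within each genotype, and those of control and treated WT DCs only slightly. Its locus overlaps 4930429B21Rik, which was under 1 FPKM in every group. The log2 ratios were -0.56 (-0.99 to -0.13) and -0.26 (-0.72 to 0.20).

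**Figure D2:**
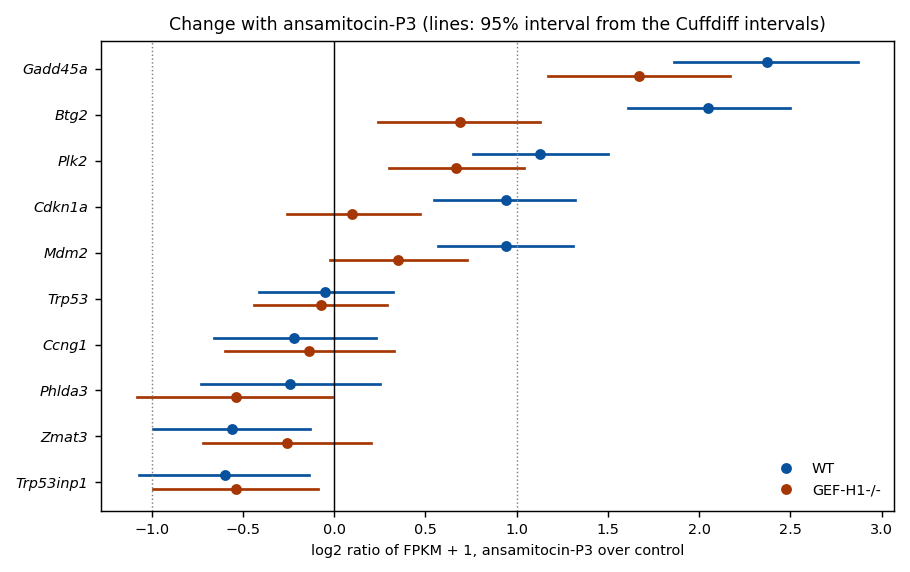
Log2 ratio of FPKM + 1, ansamitocin-P3 over control, for the 10 genes in WT and GEF-H1-/- DCs; points are the ratios, horizontal lines their 95% intervals derived from the Cuffdiff intervals, and dotted lines the 2-fold limit. In WT DCs *Gadd45a*, *Btg2* and *Plk2* lie past the limit and *Cdkn1a* and *Mdm2* just short of it at 0.94, and each GEF-H1-/- point of these 5 genes lies to the left of its WT point.

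In GEF-H1-/- DCs fewer of the genes passed these limits. *Gadd45a* alone of the 10 was past the 2-fold limit, where 0.807% of all genes were higher and 0.272% lower. *Gadd45a*, *Btg2* and *Plk2* were higher with intervals apart and none of the 10 was lower, against 2.75% of all genes higher and 0.956% lower. *Mdm2* and *Cdkn1a*, which stood apart in WT, overlapped here. The median change of the 10 genes was 0.01, and that of all genes -0.01. Beside the smaller size of the changes, their place among all genes was still high for several of them: *Btg2* ranked 225th, *Plk2* 239th and *Mdm2* 815th of 11397. *Cdkn1a* ranked 3116th, against 476th in WT.

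**Figure D3:**
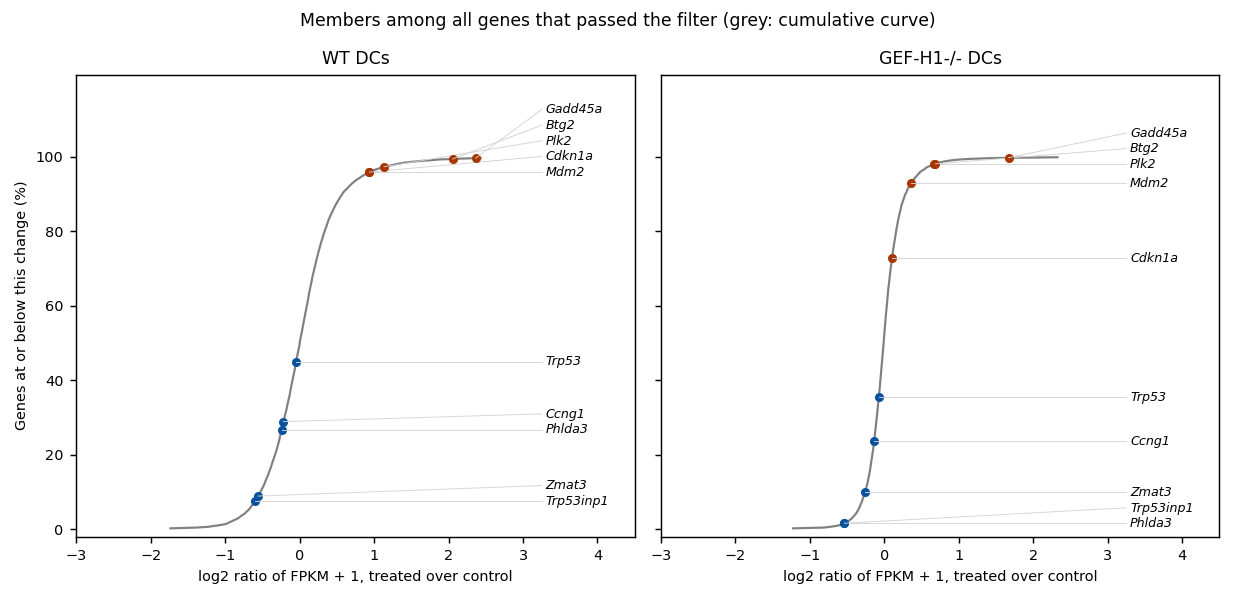
Place of the 10 genes on the cumulative curve of all 11397 genes in WT (left) and GEF-H1-/- DCs (right); the horizontal axis is the log2 ratio of FPKM + 1, treated over control, and the vertical axis the percentage of genes at or below that change. The 5 genes with ratios above 0 (red) sit at 95.8% or higher in WT, whereas in GEF-H1-/- DCs *Cdkn1a* is at 72.7%, and the curve itself is steeper there.

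The design also asks how far the response depended on GEF-H1. Without the drug, none of the 10 genes was past the limits between genotypes, either by 2-fold (1.88% of all genes, either direction) or by intervals apart (4.74%). Their ratios, GEF-H1-/- over WT, ran from -0.29 for *Gadd45a* to 0.14 for *Trp53*, with a median of -0.06 against -0.01 for all genes. After the drug, 5 of the 10 were lower in GEF-H1-/- DCs with intervals apart, against 6.73% of all genes lower. They were *Btg2* at -1.46 (-1.91 to -1.02), *Gadd45a* at -0.99 (-1.47 to -0.50), *Cdkn1a* at -0.74 (-1.11 to -0.37), *Plk2* at -0.61 (-0.98 to -0.24) and *Mdm2* at -0.53 (-0.90 to -0.16). *Btg2* was the only one past 2-fold, where 2.06% of all genes were lower, and *Gadd45a* lay just inside that limit. *Mdm2* was apart only narrowly, with a lower bound of 67.0 FPKM in WT and an upper bound of 66.7 in GEF-H1-/- DCs. Rescaling to an equal total of FPKM moved the median of all genes from -0.03 to 0.20 here and made these 5 differences smaller. The deposited totals were 739523 FPKM in treated WT and 617423 in treated GEF-H1-/- DCs. With the bounds scaled to an equal total, *Btg2* alone of these 5 stays apart. *Cdkn1a*, *Plk2* and *Mdm2* then overlap, and *Gadd45a* overlaps narrowly, so the count of 5 holds on the deposited scale only. The share of all genes was not recounted after this rescaling. The other 5 genes ran from -0.26 for *Phlda3* to 0.12 for *Trp53* with overlapping intervals. The median of the 10 was -0.40, and that of all genes -0.03.

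The difference between genotypes in the drug's change (WT minus GEF-H1-/-) uses the same treated groups and is not independent of these values. It was 1.37 (0.74 to 2.0) for *Btg2*, the only member past 1, as were 1.36% of all genes. It was 0.84 (0.30 to 1.37) for *Cdkn1a* and 0.58 (0.06 to 1.11) for *Mdm2*, and with *Btg2* these were the 3 of the 10 genes whose interval lay above 0, against 4.77% of all genes. For *Gadd45a*, at 0.70 (-0.01 to 1.41), and *Plk2*, at 0.46 (-0.06 to 0.98), the interval reached 0, so the difference was not resolved by this error. The other 5 genes lay between -0.30 for *Zmat3* and 0.30 for *Phlda3*, all with intervals across 0. The median was 0.38 against 0.01 for all genes, and rescaling to an equal total of FPKM moved the latter to -0.19. The same rescaling lowers the value of each member. The interval of *Mdm2*, with its lower bound of 0.06, then includes 0, so its difference is resolved on the deposited scale only. Of the 5 genes that were higher in WT, *Gadd45a* still rose past 2-fold without GEF-H1, while the intervals of *Cdkn1a* and *Mdm2* in GEF-H1-/- DCs included 0. The difference between genotypes was of similar size for *Gadd45a* and *Cdkn1a*, with overlapping intervals, so these genes are not ranked by their dependence on GEF-H1.

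Other transcripts moved with genotype in the same cultures. Summed FPKM of the 5 macrophage or monocyte markers was 693 in control and 599 in treated WT, and 1127 and 1029 in GEF-H1-/- DCs. Most of this gap was *Lyz2*, at 557 FPKM in control WT and 984 in control GEF-H1-/- DCs, and the median log2 ratio of the list between control groups was 0.05. The other 4 markers, *Csf1r*, *Emr1* (also called *Adgre1*), *Fcgr1* and *Mertk*, had ratios between -0.22 and 0.10 there, with overlapping intervals. The 6 neutrophil markers summed to 37883 in treated WT and 22111 in treated GEF-H1-/- DCs, but they did not move one way. Between the control groups *Camp* was at -3.57 and *Ngp* at -1.28, whereas *Mpo* was at 1.23 and *Elane*, with overlapping intervals, at 1.11. The 3 basophil or mast cell markers summed to 100.8 and 105.6 in WT DCs and to 185 and 178 in the absence of GEF-H1, led by *Fcer1a* at 2.25. T cell, B cell and erythroid markers summed to between 1.98 and 13.0 FPKM in each group, both NK cell markers were under 1 FPKM, and no marker was at 0 in any group. With the drug in WT DCs, all 5 macrophage markers had ratios below 0, and *Mertk* was at -1.86. The part of these cell types in the results on p53 targets was not tested.

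Beyond the 10 genes, 38 other p53 target genes were listed by role, of which 34 passed the filter. *Zfp365* did not pass, and *Pidd1*, *Trp53cor1* and *Bloc1s2* were not analysed here. In WT DCs 2 of the 34 were past 2-fold, both higher, 4 were higher with intervals apart and 3 lower, and the median change was 0.11. Over all genes 3.66% were higher past 2-fold, and 9.19% were higher and 7.58% lower with intervals apart, so these counts were near the background. In GEF-H1-/- DCs none was past 2-fold, 2 were higher with intervals apart and none lower, and the median was -0.10, where 0.807% of all genes were higher past 2-fold and 2.75% were higher with intervals apart. In each list the genes past 2-fold are named or, where there was none, the gene with the largest ratio, and any other gene from these lists was picked with its values known. The shift of -0.24 under an equal total is larger than the median of 0.11, so the sign of that median depends on the scaling.

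The apoptosis group (10 genes that passed) held the largest change of these 34. *Pmaip1*, which encodes the BH3-only protein Noxa, was at 49.6 FPKM (36.3 to 58.4) untreated and 171 (128 to 206) treated in WT DCs, and at 34.9 (25.6 to 41.3) and 70.1 (51.7 to 83.0) in the knockout, changes of 1.76 and 0.99. The rest of the group had overlapping intervals in both genotypes. *Bax*, the pore-forming effector of apoptosis, was at 177 (131 to 211) and 201 (144 to 231) FPKM in WT DCs and at 182 (134 to 215) and 191 (140 to 225) in the absence of GEF-H1, and *Bbc3*, which encodes Puma, changed by 0.36 and -0.13. *Perp*, a membrane protein of cell junctions, was past 2-fold between genotypes in both states, at -1.24 in control and -1.63 in treated cells. *Pmaip1* was past 2-fold between genotypes in treated cells, at 171 FPKM in WT and 70.1 in GEF-H1-/- DCs, with intervals apart.

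Among cell cycle and other targets (9 that passed), *Plk3*, a stress-responsive polo-like kinase, was at 15.9 FPKM (12.5 to 19.3) untreated and 49.9 (40.3 to 59.4) treated in WT DCs, and at 15.4 (12.5 to 18.4) and 28.9 (23.6 to 34.3) in the knockout, changes of 1.59 and 0.86. *Eda2r*, a receptor of the TNF family, was higher with intervals apart in WT at 0.79, and *Psrc1*, a microtubule-binding protein of the spindle, was lower at -0.66. The median of this group was -0.26 in WT DCs and -0.07 in the absence of GEF-H1.

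Targets in DNA repair and nucleotide supply (5 genes) had a median of -0.18 in WT DCs and -0.16 in the absence of GEF-H1, and 4 of the 5 had ratios below 0 in each. *Xpc*, which recognizes DNA lesions for nucleotide excision repair, was the one apart in WT, at -0.55, and was at -0.39 in GEF-H1-/- DCs. Metabolism, redox and autophagy targets (7 genes) went both ways, with medians of 0.12 and -0.13. *Gls2*, mitochondrial glutaminase, was higher with intervals apart in WT at 0.82, from a level of only 0.808 FPKM, and *Ephx1*, an epoxide hydrolase, was lower at -0.88. *Dram1*, a lysosomal protein of autophagy, had the largest ratio of this group in GEF-H1-/- DCs, 0.46, with overlapping intervals. The 3 feedback genes had ratios between 0.11 and 0.34 in WT, the highest for *Rfwd2*, also called *Cop1*, a ubiquitin ligase for p53, and between -0.18 for *Rchy1*, another such ligase, and 0.05 in GEF-H1-/- DCs.

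Of 20 genes that regulate p53 or belong to its family, 17 passed. None was higher with intervals apart in WT and 4 were lower, all of them kinases that signal DNA damage to p53, where 7.58% of all genes were lower by that measure. *Atm* went from 3.24 FPKM (2.60 to 3.89) to 0.977 (0.766 to 1.19), a change of -1.10 and the only one past 2-fold. *Chek2* was at -0.69, *Atr* at -0.51 and *Prkdc* at -0.71. Without GEF-H1 none of the 17 was apart, and the largest ratio was 0.53 for *Cdkn2a*, which encodes the Mdm2 inhibitor p19Arf as well as p16. Of the 4 kinases, *Chek2* was still lower there, at 8.33 FPKM without and 5.49 with the drug, a ratio of -0.52 with overlapping intervals. *Atm* was at -0.20, *Atr* at 4.22 and 4.77 FPKM, and *Prkdc* at 1.58 and 1.56. The list's median was -0.01 in WT DCs and 0.10 in the absence of GEF-H1.

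Of 24 listed relatives of the members by gene family, 17 passed, and 4 of these were past 2-fold in WT, all higher, as were 3.66% of all genes. *Phlda1*, of the same family as *Phlda3*, was at 1.83 in WT DCs and 0.88 in the absence of GEF-H1, *Btg1*, an antiproliferative relative of *Btg2*, at 1.32 and 0.70, and *Plk3* as given above. *Btg3* was at 1.2 and -1.45, but its intervals were wide and overlapped in each genotype. The relatives of *Gadd45a* did not follow it: *Gadd45b* was at 53.1 FPKM (40.0 to 64.7) without and 53.1 (38.6 to 62.5) with the drug in WT DCs, and *Gadd45g* was lower with intervals apart at -0.89. The median of the 17 was 0.32 in WT DCs and -0.09 in the absence of GEF-H1.

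The 21 listed cell cycle genes, which p21 represses through the DREAM and RB complexes when p53 is active, all passed. In WT DCs 19 of the 21 had ratios below 0 with a median of -0.31, where 49.6% of all genes had ratios below 0. None was past 2-fold, and *E2f1* (-0.60), *Mcm5* (-0.60) and *Kif23* (-0.56) were lower with intervals apart, 3 of the 21 against 7.58% of all genes. The largest ratio was -0.66 for *Rrm2*, a subunit of ribonucleotide reductase, with overlapping intervals. In GEF-H1-/- DCs 11 of the 21 had ratios below 0, as did 52.3% of all genes, the median was -0.03, none was apart, and the largest ratio was 0.35 for *Cdc25c*, a phosphatase that activates Cdk1.

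**Figure D4:**
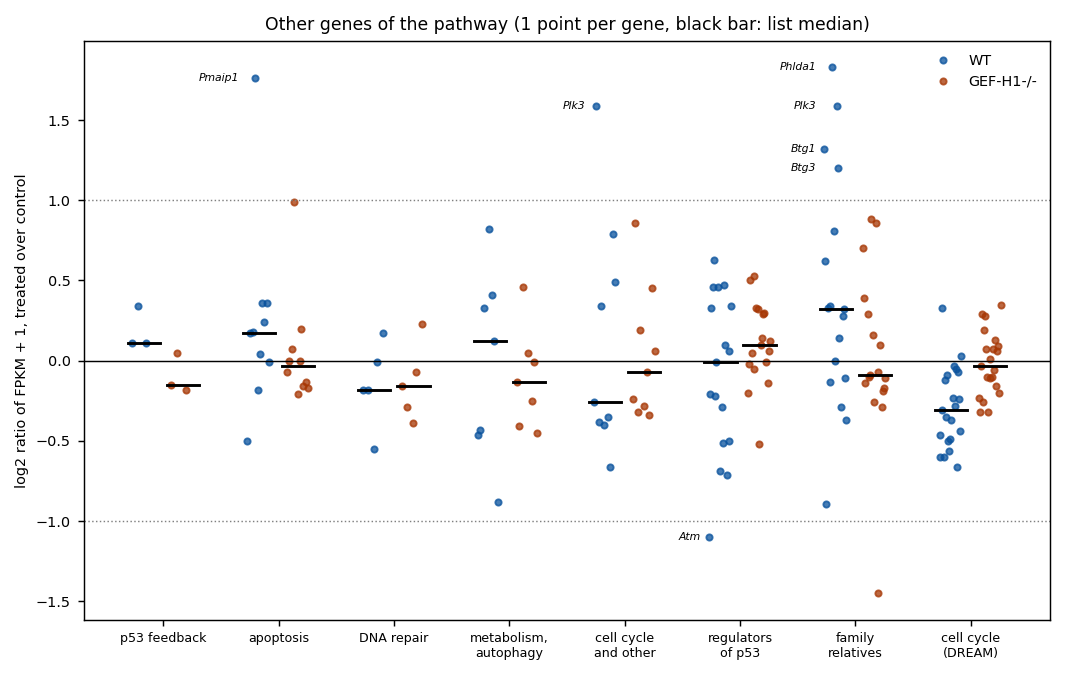
Log2 ratio of FPKM + 1, ansamitocin-P3 over control, for the other p53 target genes by role, the regulators of p53, family relatives of the members and DREAM cell cycle genes, 1 point per gene that passed the filter; black bars are list medians and dotted lines the 2-fold limit. *Pmaip1*, *Plk3*, *Phlda1*, *Btg1*, *Btg3* and *Atm* lie past the limit in WT DCs and *Btg3*, at -1.45, in GEF-H1-/- DCs. *Plk3*, *Mdm4*, *Plk1* and *Plk4* are each shown in 2 lists.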

How the data were processed

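RNA from control and ansamitocin-P3-treated BMDCs of both genotypes was made into strand-specific TruSeq libraries by the authors and sequenced as paired ends. The authors computed FPKM with Cuffdiff (version 1.05 in the submitters' processing notes, which name the build mm10), and the deposited table gives 1 FPKM per gene and group with interval bounds and a status. The study's methods name STAR and GRCm38 for a separate count analysis, but the aligner and annotation behind this table are not given in the sources used here. The methods state a targeted depth, not the reads obtained per library, and FPKM keeps no fragment counts, so precision rests on the intervals, whose median width was 45.3% of the FPKM in control WT DCs. The number of per-sample columns set aside was 0.

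Genes with status OK (23249 of 23356) and at least 1 FPKM in at least 1 group were kept. Ratios used a pseudocount of 1 FPKM, which understates changes of low genes. Each interval was converted to an error on the log2 scale and added in quadrature. Groups follow the labels. The values are pooled, so no test was run. Named were all members, *Arhgef2* and, in each other list, genes past 2-fold or else the one with the largest ratio. Members and lists were chosen with earlier results of these data known. Promoters were taken from RefSeq. Alternatives were other pseudocounts, filters, scalings and call rules. The computation was tested on simulated data. Python 3.11.15, pandas 2.3.3, numpy 2.4.6 and matplotlib 3.10.9 were used.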

Additional observations from a re-analysis of the deposited data

How the results depend on the processing

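All 400 values of single members under the alternatives stayed within their error, and none of those past the limit changed sign. Only the other pseudocounts and scalings could move these values. The filters and call rules leave a member's ratio as it was, so their part of this count was fixed in advance. With a pseudocount of 0.1 FPKM, the genes past 2-fold numbered 956 in WT and 212 in GEF-H1-/- DCs with the drug, 372 between control groups, 801 between treated groups and 387 for the difference in drug change, and 2 members differed between treated groups. With 5 FPKM these were 318, 77, 101, 206 and 123 genes. Requiring intervals apart left 70 genes in GEF-H1-/- DCs. For the difference it left 141, where the rule asked that control and treated intervals be apart in either genotype, not that the difference itself be resolved. A 1.5-fold limit gave 2059, 462, 607, 1716 and 958 genes, and 6, 3, 4 and 4 members in WT, in GEF-H1-/- DCs, between treated groups and for the difference. Main counts were 563, 123, 214, 463 and 216 genes. In WT 74.1% of the genes past 2-fold were higher, 59.3% with a pseudocount of 0.1, 85.2% with 5, and 38.9% after rescaling to an equal total of FPKM, which left 2 members past the limit. Under that scaling the median of all genes was 0.20 between treated groups and -0.19 for the difference, where *Trp53* went from 0.03 to -0.21. No paired analysis was possible because the table holds only group values; leaving out a replicate was not possible for the same reason. Depth could not be read from FPKM, and genes near 1 FPKM, such as *Gls2* and *Atm*, are the least certain.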
